A study of Homo sapiens with 24 samples.

Results

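The mRNAs of the oxidative phosphorylation subunits were followed in 24 total RNA libraries from HepG2, SNU398 and SNU475, 3 cell lines derived from human liver cancers. Members were the protein-coding genes named as subunits are: MT-ND, MT-CO, MT-ATP and MT-CYB in the mitochondrial genome, and NDUFA, NDUFB, NDUFC, NDUFS and NDUFV with a number, SDHA to SDHD, UQCR, COX4 to COX8 with a letter A to C, and ATP5 in the nuclear genome. The rule found 119 of 63677 rows of the gene table, of which 13 were mitochondrially encoded genes and 91 were nuclear-encoded genes on chromosomes. The other 15 rows lay on patches or alternate contigs and were listed at 0 in every library. Of the 104 genes on chromosomes, 94 passed a filter on low values (0.5 RPKM or more in 2 or more libraries), namely all 13 mitochondrial and 81 nuclear genes. Of the 10 that did not pass, 6 were low (COX6A2, COX6B2, COX8C, ATP5L2, ATP5J2-PTCD1 and 1 entry of NDUFA7) and 4 were listed at 0 in every library (NDUFC2-KCTD14 and second entries of NDUFB8, SDHD and UQCR11).

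Each line received 4 treatments: Dulbecco's phosphate-buffered saline as the vehicle (DPBS), decitabine at 100 nM, GSK-126 at 500 nM, or both drugs together. Decitabine is a cytidine analog that traps DNA methyltransferases, and GSK-126 inhibits EZH2, the enzyme that methylates histone H3 at lysine 27. Drugs were given daily for 3 days, and cells were collected on day 14, or for SNU475 on day 21, so that the line SNU475 and the later harvest cannot be told apart. Each of the 12 groups had 2 libraries, A and B. Nothing in the sources used here says that A and B were separate cultures, so p-values measure only the spread between these libraries, which may be technical.

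Oxidative phosphorylation passes electrons from NADH and succinate along complexes I to IV of the inner mitochondrial membrane and uses the resulting proton gradient to make ATP at complex V. Complex II is built from nuclear genes alone, while the other complexes also hold subunits encoded by mitochondrial DNA. That DNA is transcribed from both strands into long precursors that are cut at the transfer RNAs, so the level of a mitochondrial mRNA depends on processing and decay as well as on transcription. Nuclear subunit genes are transcribed one by one, many of them under NRF1 and the ETS factor GABPA. Hepatocytes are rich in mitochondria.

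Between 32.6 and 60.4 times 1e6 reads stood behind each library's unit, and 57.2% to 69.5% of them lay in genes. Levels are RPKM (reads per kilobase of gene and per 1e6 reads) divided by a scaling factor per library. Changes are on the scale of log2(scaled RPKM + 0.5), given with the standard error (SE) of limma's model, and were called where the Benjamini-Hochberg adjusted p over all 19377 genes tested was under 0.05. The 12 hepatocyte markers, ALB and APOA1 among them, summed to 8241 to 13980 scaled RPKM in HepG2, 0.666 to 56.4 in SNU398 and 2.65 to 88.6 in SNU475, and the 6 stellate cell or fibroblast markers to 0.61 to 2.66, 292 to 341 and 107 to 253. The last 2 lines thus held little of the hepatocyte transcripts. Their hepatocyte sums also differed between replicates, most in SNU398 decitabine A and B (56.4 and 1.05) and SNU475 DPBS A and B (88.6 and 23.1). The mitochondrial sums described next were 10860 and 11380 in the first pair and 15300 and 15870 in the second. Endothelial markers summed to at most 1.34 in any library, and the T cell gene CD3E reached at most 0.0465.

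In scaled RPKM, which divides by the deposited gene length, the 13 mitochondrially encoded mRNAs summed to far more than the nuclear ones. DPBS libraries A and B held 18800 and 18030 scaled RPKM of the mitochondrial set in HepG2, 7461 and 7921 in SNU398 and 15300 and 15870 in SNU475. The 91 nuclear genes summed to 1922 and 1892, 2295 and 2341 and 1824 and 1828. SNU398 had the lowest mitochondrial and the highest nuclear sum, with no overlap with the other lines. The ratio of the sums was 9.66 ± 0.18 in HepG2, 3.32 ± 0.0933 in SNU398 and 8.53 ± 0.206 in SNU475 (SD, n = 2). In bulk RNA, fewer cells of a type and less RNA per cell cannot be told apart.

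Treatment moved the mitochondrial sum more than the nuclear sum in SNU398 and SNU475. In SNU475 the mitochondrial sum was 29470 and 30390 after decitabine, 8611 and 9062 after GSK-126 and 26850 and 27580 after the combination, which is 1.92, 0.567 and 1.75 times the DPBS mean. The nuclear sum in the same groups was 1.05, 1.03 and 1.04 times that of DPBS. In SNU398 the mitochondrial sum was 10860 and 11380, 4555 and 4983 and 11620 and 11710, or 1.45, 0.62 and 1.52 times DPBS, beside 0.97, 0.837 and 0.926 for the nuclear sum.

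In HepG2 both sums lay below DPBS under every treatment. The mitochondrial sum was 15050 and 16100 after decitabine, 12720 and 12220 after GSK-126 and 15850 and 16130 after the combination, or 0.846, 0.677 and 0.868 times DPBS. The nuclear sum was 0.816, 0.723 and 0.86 times DPBS. Hepatocyte markers in HepG2 summed to 13890 and 13980 in DPBS, 12680 and 13070 after decitabine, 12330 and 12360 after GSK-126 and 8241 and 8290 after the combination, and their part in these values was not tested. In each line, no treated library overlapped with a DPBS library in the mitochondrial sum. The sums were not tested.

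**Figure D1:**
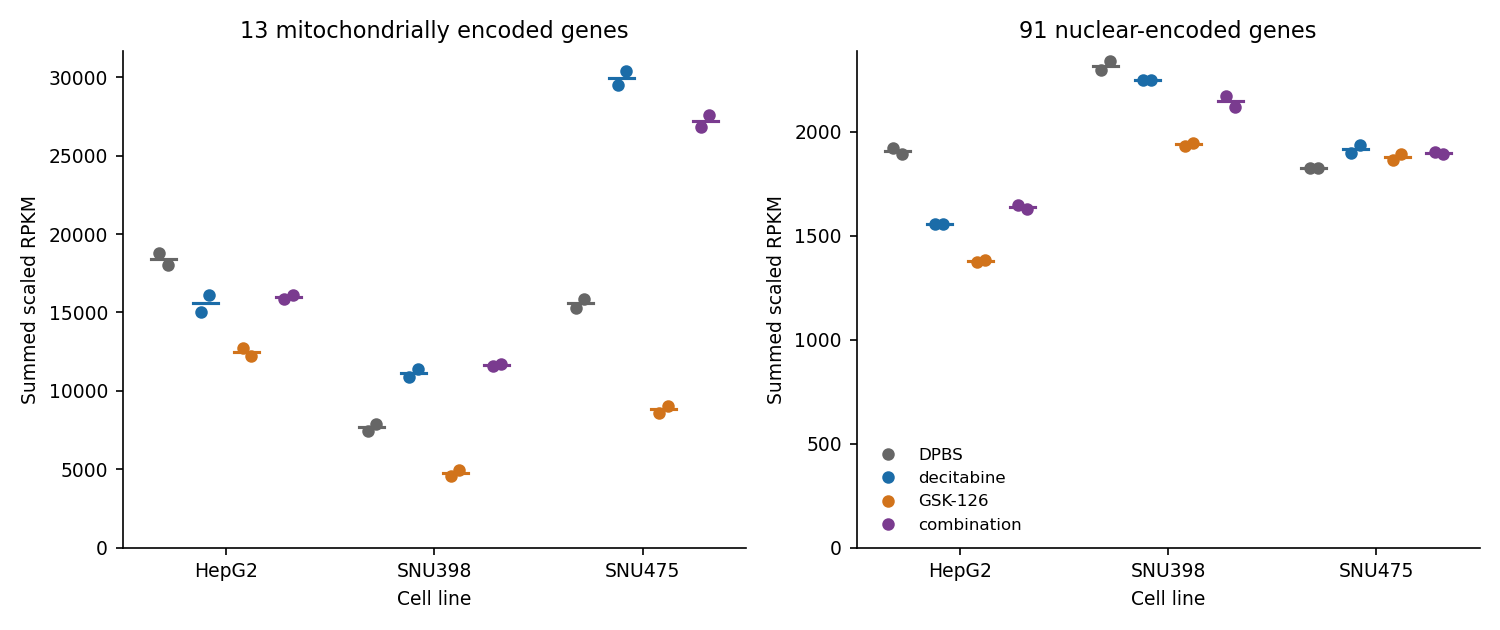
Summed scaled RPKM of the 13 mitochondrially encoded genes and of the 91 nuclear-encoded genes on chromosomes in each of the 24 libraries, by line and treatment; points are libraries, bars are group means and the axes start at 0. The SNU475 mitochondrial sums are 29470 and 30390 after decitabine and 8611 and 9062 after GSK-126, on either side of DPBS at 15300 and 15870.

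Without drug, all 13 mitochondrial mRNAs were called lower in SNU398 than in HepG2, with a median log2 difference of -1.15, but under quantile normalization 6 were lower and 5 higher. Of all genes, 36.5% were called lower and 40% higher (52.3% of calls were higher, 64.2% on unscaled RPKM, which moved the median of all genes by 0.207). Quantile normalization gives every library the same value at each rank, and the mitochondrial genes held 5 to 12 of the 30 highest ranks in each library; the part of this in its counts was not tested. MT-CO3, a core subunit of the terminal oxidase, complex IV, stood at 2185 and 2109 scaled RPKM in HepG2 and at 563 and 578 in SNU398, a log2 difference of -1.91 ± 0.03, adjusted p = 4.6e-17. MT-ND1 of complex I showed the smallest difference of the 13, -0.65 ± 0.05, which turned to 1.10 under quantile normalization.

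SNU475 had 12 of 13 called higher than SNU398 and 0 lower, with a median of 1.24 (7 and 4 under quantile normalization), where 40% of all genes were called higher and 38.1% lower. Between SNU475 and HepG2, 2 were called higher and 7 lower, which became 5 and 3 on unscaled RPKM and 7 and 1 under quantile normalization. The 2 called higher were 1 without SNU475 DPBS A and 0 without SNU475 DPBS B or HepG2 DPBS B. Of all genes in that comparison, 42.4% were called higher and 36.9% lower. MT-ND3, a small complex I subunit, differed most, at 2110 and 2009 in HepG2 and 910.1 and 884 in SNU475 (-1.20 ± 0.07).

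Decitabine alone came with higher mitochondrial mRNAs in SNU475 and SNU398 and with no common direction in HepG2. In SNU475 all 13 were called higher (8 under quantile normalization), with a median log2 change of 0.94 beside -0.01 for all genes, of which 24.2% were called higher and 27.3% lower. In SNU398 11 were called higher and 0 lower (8 and 1 under quantile normalization), median 0.65 beside 0.02, where 23.4% of all genes were called higher and 15.4% lower. In HepG2 2 were called higher and 6 lower, median -0.05 beside 0.07, where 35.9% of all genes were called higher and 18.3% lower. Of all calls in HepG2 66.3% were higher, 53.3% on unscaled RPKM and 46.2% under quantile normalization, and in SNU398 60.4%, or 49.1% under quantile normalization.

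Each complex with mitochondrial subunits was part of the rise in SNU475. MT-ND1 stood at 1117 and 1175 in DPBS and at 2830 and 2923 after decitabine, a log2 change of 1.33 ± 0.05, adjusted p = 2.3e-11. MT-CYB, the cytochrome b of complex III, rose from 833 and 884 to 1769 and 1828 (1.07 ± 0.04). MT-CO1, the catalytic subunit of complex IV, stood at 1925 and 1925 in DPBS and 3635 and 3734 after decitabine (0.94 ± 0.03; 0.00 and not called under quantile normalization). In none of these genes did treated and DPBS libraries overlap, which also held for 63 of 81 nuclear members in that comparison. The share of all genes without overlap is not given here, so this is a description.

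MT-ATP6, part of the proton channel of complex V, rose in SNU475 from 1277 and 1356 to 2502 and 2562 (0.94 ± 0.04; 0.08 and not called under quantile normalization). The smallest changes there were those of MT-ND4L (0.62 ± 0.09; 0.31 and not called under quantile normalization) and MT-ND3 (0.64 ± 0.07). In SNU398, MT-ND1 rose from 880.4 and 929 to 1535 and 1637 (0.81 ± 0.05). The genes not called in SNU398 were MT-ND3, at 919 and 1006 in DPBS and 878 and 920.4 after decitabine (-0.10 ± 0.07; -1.21 and called under quantile normalization), and MT-ATP8 (0.37 ± 0.19; called without DPBS B).

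MT-ND6, the only member read from the light strand, was called higher in each line. It stood at 57.5 and 63.3 in DPBS and 98.3 and 106 after decitabine in HepG2 (0.76 ± 0.15). The values were 23.6 and 34 and then 49 and 50 in SNU398 (0.79 ± 0.15), and 74.1 and 74.5 and then 154 and 147 in SNU475 (1.02 ± 0.15). The strand setting of the read counting was not stated, so MT-ND6 values may include reads from the opposite strand. MT-CYB was the other gene called higher by decitabine in all 3 lines, with 0.24 ± 0.04 in HepG2. The share of all genes called higher in all 3 lines is not given here.

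GSK-126 alone came with lower mitochondrial mRNAs in all 3 lines. In SNU475 all 13 were called lower (9 under quantile normalization), median -0.78 beside -0.02 for all genes, of which 28.5% were called lower and 21.5% higher. In SNU398 12 were called lower and 0 higher, median -0.65 beside 0.02, where 22.4% of all genes were called lower and 30% higher. In HepG2 10 were called lower and MT-ND1 higher, median -0.59 beside 0.03, where 21.7% of all genes were called lower and 31% higher. The genes called lower in every line were 10, all but MT-ND1, MT-ND6 and MT-CYB. The share of all genes called lower in every line is not given here, so this count has no background beside it. Of all SNU398 calls 57.3% were higher, and 38.3% on unscaled RPKM.

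MT-ND4 of complex I stood at 1854 and 1888 in SNU475 DPBS and 906 and 946 after GSK-126 (-1.01 ± 0.04, adjusted p = 1e-10). It stood at 889 and 914 and then 601 and 649 in SNU398 (-0.53 ± 0.04), and at 2027 and 1980 and then 1412 and 1357 in HepG2 (-0.53 ± 0.04). MT-CO2, which takes electrons from cytochrome c, fell from 2570 and 2472 to 1355 and 1337 in HepG2 (-0.90 ± 0.05). In none of these pairs did the libraries overlap, which also held for 74 of 81 nuclear members in HepG2, 66 in SNU398 and 58 in SNU475. This too is a description, without the share of all genes that did not overlap.

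MT-CO2 in SNU398 fell from 851 and 904 to 490.2 and 542 (-0.77 ± 0.05). MT-ND1 went the other way in HepG2, from 1455 and 1384 to 1680 and 1642 (0.23 ± 0.05), and fell in SNU398 (-0.37 ± 0.05) and SNU475 (-0.47 ± 0.05), though it was called in neither under quantile normalization (-0.18 and -0.20). The share of reads in genes was 60.9% and 57.2% in SNU398 GSK-126 libraries beside 63.6% and 63.3% in DPBS, and 65.7% and 66.7% beside 69.5% and 69.1% in SNU475. The part of that difference in these falls was not tested.

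**Figure D2:**
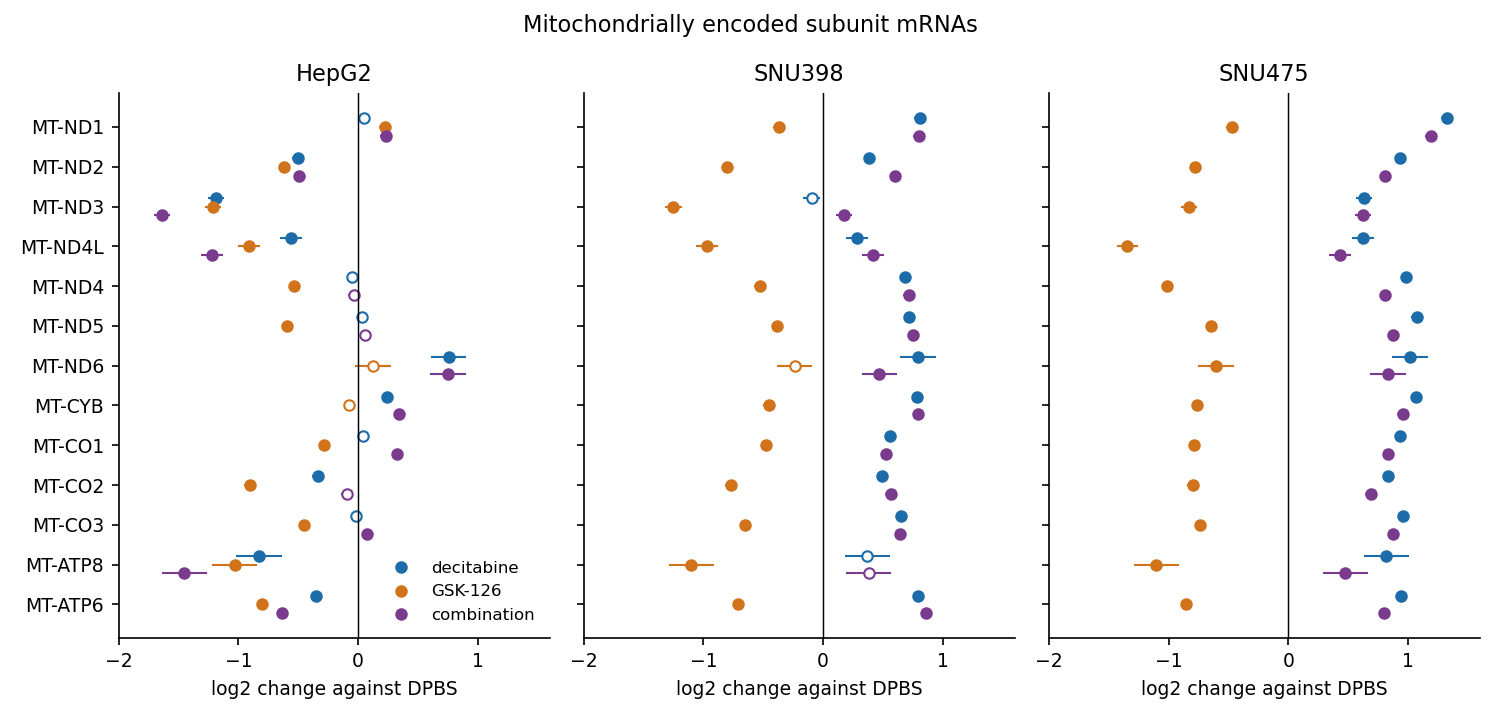
log2 change against DPBS of each mitochondrially encoded mRNA in the 3 lines and 3 treatments, with bars for the SE; filled points were called and open points were not. In SNU475 the decitabine changes run from 0.62 to 1.33 and the GSK-126 changes from -1.34 to -0.47; under quantile normalization 8 and 9 of the 13 were called.

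The combination had the direction of decitabine and not that of GSK-126 in SNU475 and SNU398. In SNU475 all 13 mitochondrial mRNAs were called higher (7 under quantile normalization), median 0.81, where 25.3% of all genes were called higher and 29.6% lower. In SNU398 12 were called higher and 0 lower (9 and 1 under quantile normalization), median 0.60, where 28.9% of all genes were called higher and 18.4% lower. In HepG2 5 were called higher and 5 lower, median -0.04. Of all genes there, 40.6% were called higher and 25.9% lower, so the count of higher genes lay near the background. Of all calls 61% were higher in HepG2 (47.9% under quantile normalization) and 61% in SNU398 (49.2%). The 3 treatments of a line were set against the same DPBS libraries. MT-CO1, MT-CO3, MT-CYB, MT-ND1 and MT-ND6 were called higher by the combination in all 3 lines. No share of all genes called higher in all 3 lines is given here.

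Set directly against decitabine, a comparison added after the data were examined, the combination gave the following counts. In SNU398 MT-ND2 and MT-ND3 were called higher (1 of them without decitabine A or combination B) and 0 were lower, where 12.5% of all genes were called higher and 8.07% lower. In SNU475 the log2 values of all 13 lay below 0, from -0.34 to -0.01, and 4 were called lower and 0 higher, where 10.9% of all genes were called lower and 7.39% higher. That count of lower genes was 9 with voom on recovered reads, 7 with the replicate block, 0 under quantile normalization, 0 without combination A and 1 without decitabine B. MT-ND5 of complex I had the largest of those changes, 1350 and 1377 after decitabine and 1167 and 1218 after the combination (-0.19 ± 0.04; 0.00 under quantile normalization). In HepG2 4 were called higher (2 without decitabine A) and 4 lower, where 30% of all genes were called higher and 25.8% lower. The HepG2 and SNU398 counts thus lay near the shares of all genes.

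The interaction, the log2 change of the combination less the sum of the changes of the single drugs, asks whether those changes add up. It was called above 0 for 12 of 13 mitochondrial mRNAs in SNU475, 12 in SNU398 and 9 in HepG2, and below 0 for none (1 in HepG2 under quantile normalization), with medians of 0.66, 0.64 and 0.54. Of all genes, 19.7%, 18.4% and 25.1% were called above 0 and 16.6%, 22.8% and 27.9% below. In SNU398 44.7% of all calls lay above 0, and 64.7% on unscaled RPKM. The largest value was that of MT-ND3 in SNU398, 1.52 ± 0.10. It stood at 919 and 1006 in DPBS, 878 and 920.4 after decitabine, 376 and 433 after GSK-126 and 1045 and 1131 after the combination, so that the fall was seen with GSK-126 alone.

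In HepG2 the 3 shortest mitochondrial genes, MT-ATP8, MT-ND4L and MT-ND3, were called lower under each treatment. Their medians were -0.83, -1.03 and -1.45 after decitabine, GSK-126 and the combination. The other 10 had medians of 0.01, -0.49 and 0.07, with 2, 1 and 5 called higher and 3, 7 and 2 lower. After GSK-126 the short genes also had the lower median in SNU398 (-1.10 beside -0.51) and SNU475 (-1.10 beside -0.77). The difference between the short and the other genes was not tested. MT-ND3 stood at 2110 and 2009 in DPBS, 867 and 946 after decitabine, 928 and 851 after GSK-126 and 660.3 and 660.5 after the combination, the last a log2 change of -1.64 ± 0.07, adjusted p = 1.8e-11. MT-ATP8, which helps anchor complex V, went from 873 and 762 to 279 and 318 after the combination (-1.45 ± 0.19). MT-ND4L, a small membrane subunit of complex I, went from 804 and 787 to 328 and 354 (-1.22 ± 0.09). MT-CO1 was among the longer genes called higher, at 1849 and 1805 in DPBS and 2317 and 2268 after the combination (0.33 ± 0.03).

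MT-ATP8 and MT-ND4L are each carried on an mRNA with a longer gene, and in HepG2 the values of the partners lay apart. MT-ATP6, the partner of MT-ATP8, stood at 1544 and 1489 in DPBS and 964 and 989 after the combination (-0.63 ± 0.04). MT-ND4, the partner of MT-ND4L, stood at 2027 and 1980 and then 1916 and 1988 (-0.04 ± 0.04). The difference between partners was not tested. The genes of each pair overlap, and how reads in shared bases were assigned is not given in the sources used here. MT-ATP8 lies at chrM:8366-8572 on the plus strand, 207 bases that end in 46 bases shared with MT-ATP6, and MT-ND4L and MT-ND4 share 7 bases. The MT-ATP8 transcript is shown from GENCODE v29, whose mitochondrial positions equal those of the deposited table, 5′ to 3′, with the shared bases in capitals.
MT-ATP8: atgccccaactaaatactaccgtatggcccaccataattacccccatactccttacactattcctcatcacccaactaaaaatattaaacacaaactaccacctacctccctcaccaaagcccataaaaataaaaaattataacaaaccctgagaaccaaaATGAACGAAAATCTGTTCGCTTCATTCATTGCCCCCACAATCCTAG

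Across the 13 genes, gene length and the log2 change had a Spearman correlation of 0.56, 0.56 and 0.57 in HepG2 after decitabine, GSK-126 and the combination, of 0.40, 0.58 and 0.58 in SNU398, and of 0.63, 0.45 and 0.73 in SNU475. Over the 81 nuclear members it was 0.21, 0.29 and 0.04 in HepG2, 0.06, 0.03 and 0.03 in SNU398, and -0.30, -0.11 and -0.29 in SNU475. Over 13741 protein-coding genes it ran from -0.26 (SNU475, decitabine) to 0.13 (SNU398, GSK-126). The genes share libraries and, in mitochondria, precursor RNAs, so these values are descriptions across genes. The part of RNA fragment length in them was not tested.

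**Figure D3:**
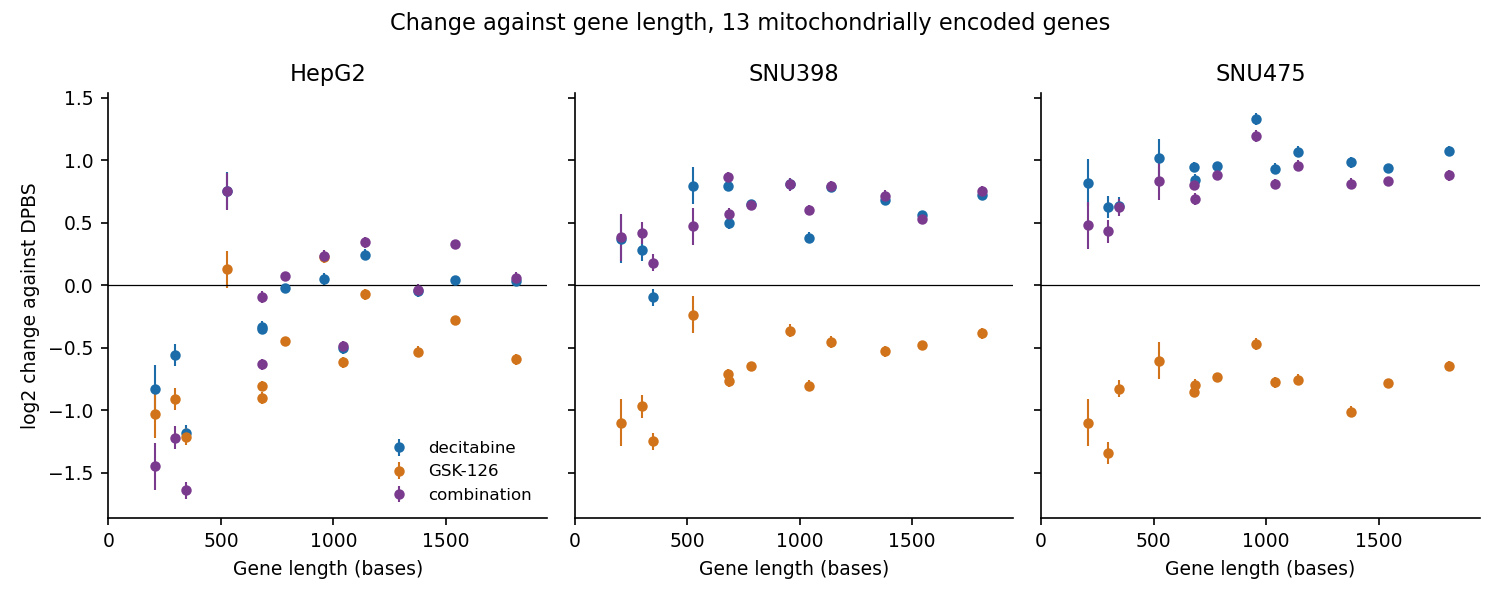
log2 change against DPBS (y axis, bars for the SE) of the 13 mitochondrially encoded genes against gene length in bases (x axis), coloured by treatment, 1 panel per line. In HepG2 the 3 shortest genes lie lowest after the combination: MT-ND3 at -1.64 ± 0.07, MT-ATP8 at -1.45 ± 0.19 and MT-ND4L at -1.22 ± 0.09.

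Nuclear pseudogene copies of mitochondrial genes, which can share reads with them, were counted beside the 13. Of 175 copies, 9 passed the filter. In SNU475 8 of these were called higher after decitabine, 4 lower after GSK-126 and 7 higher after the combination. The shares of all genes called in those directions were 24.2%, 28.5% and 25.3%. In SNU398 5 were higher, 2 lower and 4 higher, beside 23.4%, 22.4% and 28.9% of all genes. In HepG2 2, 3 and 2 were lower, beside 18.3%, 21.7% and 25.9%. The HepG2 counts and the 2 lower in SNU398 lay near the background. All 175 together held 555 to 2608 reads per library, beside 236891 to 1538636 for the 13 genes. Of the ribosomal RNA genes, which the depletion step targets, MT-RNR1 was the only one tested and was called higher after decitabine and the combination in HepG2. Of 15 mitochondrial transfer RNAs tested, 9 were called higher after decitabine in SNU475 and 7 after the combination. After GSK-126 in SNU398 4 were called lower. The shares of all genes in those directions were 24.2%, 25.3% and 22.4%, so the last count lay near the background.

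ATP5B, the catalytic beta subunit of complex V, had the highest level of the nuclear members, a mean of 201.8 scaled RPKM over all libraries. It held 189.6 and 191 in HepG2, 267 and 274 in SNU398 and 177 and 177 in SNU475 without drug. The highest members of the other complexes were NDUFS5 of complex I (mean 110.2), COX8A of complex IV (94.1), UQCRH of complex III (60.7) and SDHB of complex II (20.5). Scaled RPKM divides by the deposited gene length, such as 9851 bases for NDUFA5 and 766 for NDUFA1, so levels of different genes compare only roughly. How reads shared between genes were counted is also not given in the sources used here.

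Promoters of the nuclear members were searched for 2 motifs. RefSeq windows (GRCh38.p14) of 300 bases, 250 before and 50 after the start, were found for 67 of the 91 genes. Both strands were searched for GCGCATGC, the core of the NRF1 motif, and for CCGGAAG, the ETS motif that GABPA binds. The NRF1 core was in 13 of 67 (19.4%), beside 5.25% of 10853 protein-coding genes tested and 3.27% of 27305 promoters in the table. The ETS motif was in 18 of 67 (26.9%), beside 18.3% and 10.7%. Both were in 6 members, SDHB, SDHD, COX5B, COX6A1, ATP5I and ATP5J. A match describes letters and is no site, and no test was made. The promoter of COX5B, the one of those 6 with the highest level, is shown for the arrangement (chr2:97645812-97646111, plus strand, 5′ to 3′, matches in capitals).
COX5B: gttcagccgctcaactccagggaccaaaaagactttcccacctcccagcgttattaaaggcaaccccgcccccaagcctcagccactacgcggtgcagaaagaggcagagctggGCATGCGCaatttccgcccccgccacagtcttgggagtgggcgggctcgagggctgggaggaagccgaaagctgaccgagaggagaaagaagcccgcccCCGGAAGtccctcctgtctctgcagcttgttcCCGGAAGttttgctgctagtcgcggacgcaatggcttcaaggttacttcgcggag

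Without drug, some nuclear subunits differed between lines by more than 1 on the log2 scale. Most members were called in each pair of lines, and so were most genes of the whole table. SNU398 had 47 of 81 called higher than HepG2 and 21 lower, beside 40% and 36.5% of all genes, median 0.23 (60 and 11 on unscaled RPKM). SNU475 had 53 called lower than SNU398 and 21 higher, beside 38.1% and 40% of all genes, median -0.41. SNU475 had 43 lower than HepG2 and 25 higher, beside 36.9% and 42.4% of all genes, which became 26 and 37 on unscaled RPKM. UQCRC2, a core protein of complex III, held 49.7 and 49.7 in HepG2, 21.1 and 21.1 in SNU398 and 14.8 and 14.8 in SNU475 (-1.72 ± 0.02, adjusted p = 3.3e-18 for SNU475 against HepG2).

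NDUFV1, which binds NADH in complex I, held 15.1 and 14.7 in HepG2, 18.4 and 18.7 in SNU398 and 53.1 and 54.7 in SNU475 (1.82 ± 0.05 for SNU475 against HepG2). NDUFS8, an iron-sulfur subunit of complex I, had the same order, 8.02 and 7.42, 8.9 and 8.88 and 27.1 and 27.8. COX6C of complex IV was highest in SNU398, at 38.1 and 39.4, beside 12.9 and 13.2 in HepG2 (1.54 ± 0.05) and 23.6 and 24.4 in SNU475. ATP5D, the delta subunit of complex V, was lowest in SNU475, at 7.35 and 7.89, beside 20.5 and 20.2 in HepG2 (-1.36 ± 0.06) and 19.6 and 19.2 in SNU398.

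After decitabine most nuclear subunits were lower in HepG2. There 58 of 81 were called lower and 6 higher (3 without decitabine B), median -0.25 beside 0.07 for all genes. In SNU398 20 were called lower (11 without DPBS B, 13 without decitabine A and 12 without decitabine B) and 10 higher (6 without DPBS A), median -0.05. In SNU475 29 were called higher and 12 lower, median 0.08, which turned to 19 and 23 under quantile normalization. Of all genes, 18.3%, 15.4% and 27.3% were called lower and 35.9%, 23.4% and 24.2% higher in HepG2, SNU398 and SNU475. The nuclear counts here and below include COX7A1 and NDUFA4L2. These genes passed the filter only through groups where they were high, so their calls are no test. By complex, 25 of 36 were lower in HepG2 in complex I, 2 of 4 in II, 7 of 8 in III, 8 of 13 in IV and 15 of 18 in V, with the NDUFA4 genes counted apart.

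NDUFA4, first assigned to complex I and now counted with complex IV, fell in HepG2 from 22.7 and 23.1 to 10.8 and 10.6 (-1.06 ± 0.05, adjusted p = 9.2e-11). It stood at 36.9 and 38.3 and then 37.1 and 36.5 in SNU398 (-0.03 ± 0.05). COX7B, a small subunit of complex IV, fell from 12.2 and 12 to 6.79 and 6.47 in HepG2 (-0.82 ± 0.04). COX7B, ATP5J of complex V and NDUFS7 of complex I were the 3 members called lower by decitabine in all 3 lines, and none was called higher in all 3. Shares of all genes called alike in all 3 lines are not given here.

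In SNU475, SDHB, the iron-sulfur subunit of complex II, rose after decitabine from 16.6 and 17.1 to 22 and 22.5 (0.39 ± 0.04). NDUFC2 of complex I fell there from 12.2 and 11.9 to 6.39 and 5.11 (-1.01 ± 0.20). NDUFC2 shares its locus with the readthrough gene NDUFC2-KCTD14, which was listed at 0, so how shared reads were counted is uncertain. In SNU398 the lowest called change was that of ATP5I of complex V (-0.27 ± 0.06), and NDUFA1 of complex I rose from 27.2 and 29.4 to 35.4 and 34.3 (0.30 ± 0.05).

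After GSK-126 the nuclear subunits were lower in HepG2 and SNU398. In HepG2 62 of 81 were called lower and 8 higher, median -0.35 beside 0.03 for all genes. In SNU398 50 were called lower and 5 higher, median -0.18 beside 0.02. In SNU475 25 were called higher and 15 lower (9 without DPBS B or without GSK-126 A), median 0.04 (21 and 21 under quantile normalization). Shares of all genes called lower were 21.7%, 22.4% and 28.5%, and higher 31%, 30% and 21.5%, in HepG2, SNU398 and SNU475. By complex, HepG2 had 29 of 36 lower in complex I, 4 of 4 in II, 6 of 8 in III, 8 of 13 in IV and 14 of 18 in V.

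ATP5G3, 1 of 3 genes for the c-ring that turns in complex V, fell in HepG2 from 21.5 and 21 to 9.75 and 9.54 (-1.10 ± 0.02, adjusted p = 2.7e-14). NDUFB6 of complex I fell from 14.8 and 14.3 to 7 and 5.86 (-1.12 ± 0.07). In SNU398 the lowest change was that of NDUFB8, also of complex I, from 12.7 and 13.1 to 6.85 and 7.02 (-0.85 ± 0.06). A second entry of NDUFB8 had no reads in any library, so how shared reads were counted is uncertain. In SNU475 the highest was that of NDUFB7, another complex I subunit, from 26.7 and 25.2 to 39.5 and 37 (0.55 ± 0.09).

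COX7A2L, which joins complexes III and IV into supercomplexes, was the only nuclear member called higher by GSK-126 in all 3 lines. It rose from 12.4 and 12.6 to 17.1 and 16.6 in HepG2 (0.41 ± 0.03), and from 19.2 and 18.6 to 31.4 and 30.8 in SNU398 (0.71 ± 0.03). In SNU475, where it is not among the genes picked by the rule for named genes, it stood at 7.83 and 7.56 and then 8.75 and 8.95 (0.19 ± 0.03). The 12 called lower in all 3 lines were ATP5C1, ATP5J, ATP5J2, COX7A2, COX7B, NDUFA4, NDUFA5, NDUFB8, NDUFC2, NDUFS5, UQCR10 and UQCRC2. For neither direction is the share of all genes called in all 3 lines given here.

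After the combination, 45 nuclear members were called lower and 17 higher in HepG2 (median -0.16), 36 lower and 8 higher in SNU398 (-0.10; 5 higher without DPBS A or combination A), and 15 lower and 32 higher in SNU475 (0.06; 20 and 23 under quantile normalization). Of all genes, 25.9%, 18.4% and 29.6% were called lower and 40.6%, 28.9% and 25.3% higher in these lines. The lowest member in HepG2 was SDHD, a membrane anchor of complex II. It went from 9.01 and 9.72 to 2.1 and 2.74 (-1.76 ± 0.16, adjusted p = 1.5e-07). A second entry of SDHD had no reads in any library, so how shared reads were counted is uncertain. NDUFC2 went from 14 and 15.4 to 4.33 and 4.7 (-1.60 ± 0.20). NDUFA4 went from 22.7 and 23.1 to 7.66 and 8.16 (-1.48 ± 0.05). These 3 genes lay lower after the combination than after decitabine as well, with -0.91 ± 0.16, -0.87 ± 0.20 and -0.42 ± 0.05 between the 2 groups.

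Set against decitabine over all nuclear members, the combination had 34 called higher and 17 lower in HepG2. In SNU398 NDUFA12 of complex I was higher and 17 were lower, and in SNU475 6 were higher and 4 lower. Of all genes, 30%, 12.5% and 7.39% were called higher and 25.8%, 8.07% and 10.9% lower. The 17 lower in HepG2 and the 6 higher in SNU475 lay near these shares. Without combination B the SNU398 counts were 2 and 10, and without decitabine B 11 were lower. The SNU475 counts were 3 higher without decitabine A, 3 and 1 without decitabine B, and 2 and 2 without combination A. The interaction was called above 0 for 60 of 81 in HepG2 and below for 7, median 0.50 beside 0.00 for all genes. NDUFA1 had the largest value (1.22 ± 0.07): it stood at 47.3 and 46.8 in DPBS, 37.9 and 40.4 after decitabine, 26.5 and 27.3 after GSK-126 and 52.6 and 52.6 after the combination, so only the single drugs came with lower values. In SNU398 34 were called above 0 and 6 below. In SNU475 12 were above and 19 below, which turned to 17 and 12 on unscaled RPKM and 16 and 14 under quantile normalization. Shares of all genes above 0 were 25.1%, 18.4% and 19.7%, and below 27.9%, 22.8% and 16.6%, in HepG2, SNU398 and SNU475. The SNU475 counts lay near them.

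**Figure D4:**
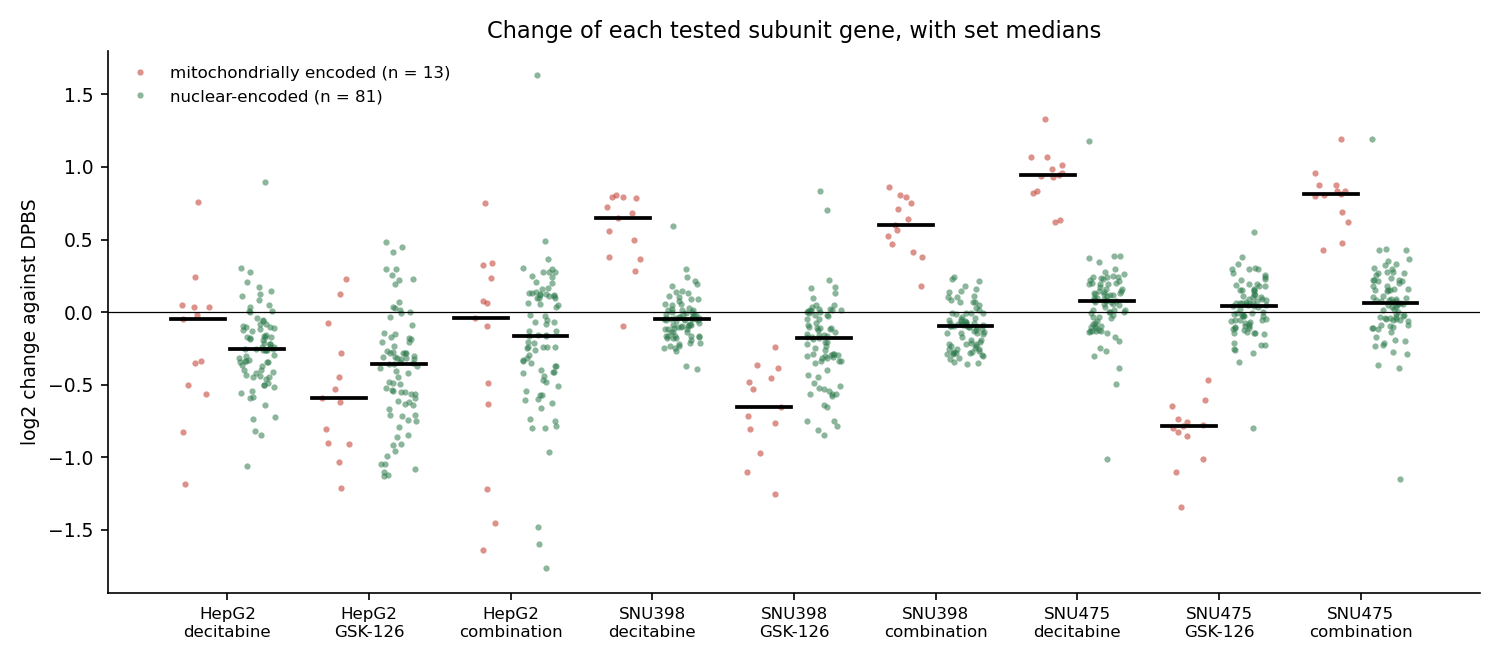
log2 change against DPBS (y axis) of each tested subunit gene in the 9 treatment comparisons (x axis), for the 13 mitochondrially encoded and the 81 nuclear-encoded genes, with bars at the medians. In SNU475 the mitochondrial medians are 0.94, -0.78 and 0.81 and the nuclear ones 0.08, 0.04 and 0.06 after decitabine, GSK-126 and the combination; under quantile normalization they are 0.28, -0.69 and 0.23, and 0.01, -0.01 and 0.02.

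The 4 genes of complex II were all called lower after GSK-126 in HepG2, from -1.05 to -0.28, and 3 of them in SNU398. The shares of all genes called lower there were 21.7% and 22.4%. In the other 7 comparisons with DPBS at most 2 of the 4 were called in one direction, and without drug they differed between lines in both directions. SDHA, its flavoprotein, was lower without drug in SNU398, at 4.78 and 4.69, than in HepG2, at 14 and 13.3 (-1.44 ± 0.04), while SDHB was higher, at 28.1 and 29.5 beside 12.2 and 13.1 (1.16 ± 0.04). After GSK-126 SDHA fell to 3.08 and 2.95 in SNU398 (-0.57 ± 0.04). SDHC, an anchor subunit, fell from 13.6 and 13.7 to 7.3 and 6.67 in HepG2 (-0.92 ± 0.07), and its values were 0.01 ± 0.07 in SNU398 and -0.08 ± 0.07 in SNU475. SDHD was called lower in HepG2 after decitabine (-0.85 ± 0.16) and GSK-126 (-1.05 ± 0.16) too, and in SNU398 after GSK-126 (-0.81 ± 0.16), while in SNU475 its values were -0.25 ± 0.16, -0.35 ± 0.16 and -0.29 ± 0.16 under the 3 treatments (after GSK-126 called with voom or with SNU475 alone).

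The decitabine effect was compared between lines directly, in 3 comparisons added after the data were examined that share libraries with each other. For SNU398 minus HepG2, 12 mitochondrial and 47 nuclear members were called above 0 and 0 and 4 below, where 18% of all genes were called above and 26% below (40.9% of calls above, 53.3% on unscaled RPKM and 52.4% under quantile normalization). For SNU475 minus HepG2, 12 and 57 were above and 0 and 5 below, where 21.5% and 36.4% of all genes were called (37.1% of calls above, 50.6% under quantile normalization). For SNU475 minus SNU398, 11 and 33 were above and 0 and 10 below, where 20.8% and 29% of all genes were called, but quantile normalization gave 1 above and 5 below for the mitochondrial set. The nuclear members called below 0 were few, and numbered 7 for SNU398 minus HepG2 and 8 for SNU475 minus HepG2 without HepG2 combination A or B, neither of which is part of the difference. For SNU475 minus HepG2 they numbered 3 without HepG2 decitabine B or SNU475 decitabine A. NDUFA4 had the largest nuclear difference in both comparisons with HepG2, 1.03 ± 0.07 and 1.14 ± 0.07.

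The GSK-126 effect differed between lines in many nuclear members. For SNU398 minus HepG2, 41 nuclear members were called above 0 and 12 below, and 1 and 5 mitochondrial ones (above 0, 2 without SNU398 GSK-126 A and 0 without B), where 27.3% and 25% of all genes were called (52.2% of calls above, 40.6% on unscaled RPKM). For SNU475 minus HepG2 the nuclear counts were 60 and 7 and the mitochondrial ones 1 and 8 (5 and 5 under quantile normalization), where 22.6% and 34% of all genes were called. For SNU475 minus SNU398 they were 48 and 6, and 1 and 5 (5 and 3 under quantile normalization), where 22.3% and 33.7% of all genes were called (39.7% of calls above, 50.1% on unscaled RPKM). ATP5G1, another c-ring gene, had the largest difference between SNU475 and HepG2 (1.30 ± 0.06): it stood at 16.4 and 15.6 in DPBS and 7.53 and 7.43 after GSK-126 in HepG2, and at 12 and 12.2 and then 14.4 and 14.6 in SNU475.

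Genes for tissue-restricted subunit forms stood near 0 in most groups. Of the 9 on the list, COX7B2, COX7A1 and NDUFA4L2 passed the filter on low values, COX7B2 by its level in SNU475 under every treatment. COX7B2, a form of COX7B known from testis, was listed at 0 in the HepG2 DPBS and GSK-126 libraries, at 0.356 and 0.51 after decitabine (11 and 16 reads) and at 1.07 and 1.03 after the combination (25 and 26 reads). The log2 values were 0.90 ± 0.07, adjusted p = 1.1e-07 and 1.63 ± 0.07, and they depend on the pseudocount since DPBS was at 0. In SNU475 it stood at 2.06 and 1.79 in DPBS and 2.83 and 2.68 after the combination (0.42 ± 0.07), and in SNU398 at 2 reads or fewer per library.

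COX7A1, the heart and skeletal muscle form of COX7A, had 0 and 1 reads in SNU475 DPBS, 32 and 37 after decitabine, 0 and 0 after GSK-126 and 28 and 33 after the combination. In scaled RPKM these were 0 and 0.0192, 0.613 and 0.697, 0 and 0 and 0.655 and 0.67. In HepG2 it had 0 and 0 reads in DPBS and 7 and 5 after the combination. NDUFA4L2, a relative of NDUFA4 known as a target of hypoxia signalling, had 0.143 and 0.185 scaled RPKM in SNU398 DPBS, 0.555 and 0.45 after decitabine, 0.607 and 0.769 after GSK-126 and 0.305 and 0.266 after the combination. COX7A1 passed the filter through the SNU475 decitabine and combination libraries alone, and NDUFA4L2 through treated SNU398 libraries alone, so the values of these 2 genes are a description and no test is given.

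The common forms stayed far above these levels, with COX7B at 12.2 and 12 in HepG2 DPBS and 6.94 and 7.22 after the combination, and COX7A2 at 31.7 and 33.2 in SNU475 DPBS and 32.7 and 34.7 after decitabine. The promoters of COX7B2 and COX7B are shown for their CpG, the substrate of DNA methyltransferases: 8 and 14 in 300 bases, beside a median of 22 over the 67 member promoters and 26 over 10853 protein-coding genes tested. They are from RefSeq (GRCh38.p14) with CpG in capitals, COX7B2 at chr4:46909196-46909495 on the minus strand and COX7B at chrX:77899218-77899517 on the plus strand. Methylation was not analysed here.
COX7B2: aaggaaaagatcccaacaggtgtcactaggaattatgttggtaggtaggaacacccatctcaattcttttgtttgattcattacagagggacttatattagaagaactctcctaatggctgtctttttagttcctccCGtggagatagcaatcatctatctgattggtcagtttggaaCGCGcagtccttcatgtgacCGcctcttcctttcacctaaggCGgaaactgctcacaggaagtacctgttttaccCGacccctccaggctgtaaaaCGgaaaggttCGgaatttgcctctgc
COX7B: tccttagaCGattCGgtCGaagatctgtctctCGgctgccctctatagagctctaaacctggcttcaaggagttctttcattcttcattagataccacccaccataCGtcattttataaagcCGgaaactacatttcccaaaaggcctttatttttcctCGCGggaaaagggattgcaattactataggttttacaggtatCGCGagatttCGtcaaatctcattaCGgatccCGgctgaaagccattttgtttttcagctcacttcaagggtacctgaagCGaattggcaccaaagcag

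**Figure D5:**
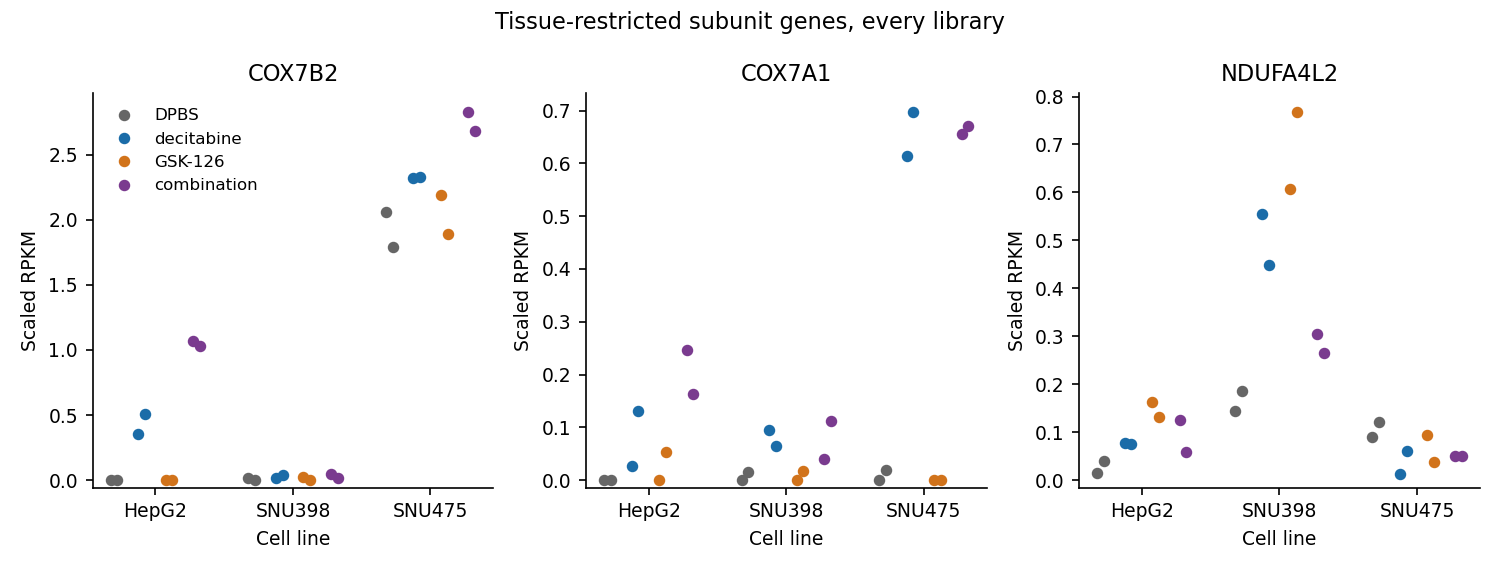
Scaled RPKM (y axis) of COX7B2, COX7A1 and NDUFA4L2 in every library by line and treatment, 1 panel per gene. COX7B2 is at 0 in HepG2 DPBS and at 1.07 and 1.03 after the combination, and COX7A1 is at 0.613 and 0.697 in SNU475 after decitabine.

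Other genes of the mitochondrial system gave the following counts after decitabine, GSK-126 and the combination, in that order. Of all genes, 18.3%, 21.7% and 25.9% were called lower and 35.9%, 31% and 40.6% higher in HepG2. The shares were 15.4%, 22.4% and 18.4% lower and 23.4%, 30% and 28.9% higher in SNU398, and 27.3%, 28.5% and 29.6% lower and 24.2%, 21.5% and 25.3% higher in SNU475. Of 7 subunits that the name rule misses, 5, 7 and 5 were called lower in HepG2, and 4, 2 and 3 higher in SNU475. CYC1, the cytochrome c1 of complex III, was among them and stood at 54.9 and 51.8 in HepG2 DPBS and 20.7 and 19 after GSK-126 (-1.40 ± 0.05). Of 74 mitochondrial ribosomal protein genes, which serve the translation of the 13 mitochondrial mRNAs, 43, 34 and 43 were called lower in HepG2, 42, 48 and 44 lower in SNU398, and 43, 37 and 50 higher in SNU475. Calls of these genes in the other direction are not given, so the counts do not show how one-sided each line was.

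Of 44 assembly factors, 16, 20 and 19 were called lower in HepG2 and 10, 11 and 15 higher. In SNU398 15, 22 and 23 were lower and 4, 10 and 1 higher. In SNU475 10, 11 and 10 were lower and 12, 12 and 13 higher, which is near the shares over all genes. COX16, a complex IV assembly factor, changed most in HepG2 after the combination, from 4.78 and 5.28 to 1.85 and 1.66 (-1.29 ± 0.08). Of 14 TCA cycle enzymes, 4, 10 and 7 were called lower in HepG2 and 5, 2 and 5 higher. FH, the fumarate hydratase, stood at 34 and 33.9 in HepG2 DPBS and 18.3 and 17 after GSK-126 (-0.93 ± 0.04).

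Of 29 genes for mitochondrial transcription and RNA handling, 9 were called higher and 5 lower after decitabine in SNU475 (beside 24.2% and 27.3% of all genes), and 8 and 8 after GSK-126 (beside 21.5% and 28.5%), so the list lay near the background there. TFAM, which packages mitochondrial DNA and helps start its transcription, fell in HepG2 after the combination from 9.32 and 10.6 to 4.19 and 5.06 (-1.03 ± 0.08). Of 16 genes for the upkeep of mitochondrial DNA, 6 were called higher and 2 lower after decitabine in SNU475, and 4 and 4 after GSK-126. Of 12 translation factors, 3 and 2, and 0 and 4, were called.

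Of 12 regulators of mitochondrial biogenesis, 9 were called higher and 0 lower after GSK-126 in HepG2, beside 31% and 21.7% of all genes. MYC, a transcription factor that drives growth, changed most of them, from 41 and 38.8 to 83.5 and 83.6 (1.06 ± 0.03). Of 13 genes of the mitochondrial unfolded-protein response, 4 were called higher and 5 lower after decitabine in HepG2. There the counts were 6 and 3 after GSK-126, and 4 and 7 after the combination. Of all genes, 35.9%, 31% and 40.6% were called higher and 18.3%, 21.7% and 25.9% lower in these comparisons. The 4 higher after decitabine and the 3 lower after GSK-126 lay near these shares. ATF5, a transcription factor of that response, rose after decitabine from 4.3 and 4.54 to 22.7 and 21.8 in HepG2 (2.21 ± 0.04) and from 5.95 and 5.92 to 12.7 and 12.8 in SNU398 (1.04 ± 0.04). HSPE1, the small partner of the mitochondrial chaperonin, fell from 30.9 and 33.5 to 9.23 and 11.4 after the combination in HepG2 (-1.60 ± 0.11).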

How the data were processed

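Total RNA depleted of ribosomal RNA was sequenced from 24 libraries, and the submitters' processing notes name HISAT2, featureCounts and hg19. Versions, strand setting and treatment of multiple alignments were not stated there. The values deposited by the authors are RPKM per gene, 1 column per library. In genes of 40 to 160 bases the RPKM steps gave whole reads for 100% of values within 0.15 reads, which yields the reads behind each unit.

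Each library's RPKM was divided by a median-of-ratios factor from 8211 genes that reach 1 RPKM in all libraries. limma 3.58.1 in R 4.3.3 (lmFit, contrasts.fit, eBayes with trend and robust) was fitted to log2(scaled RPKM + 0.5) over all 12 groups, with 12 residual degrees of freedom, on 19377 genes that reach 0.5 RPKM in 2 or more libraries. Tests were two-sided, with Benjamini-Hochberg adjustment per comparison over all genes tested. The fit was tested on simulated data. Members were matched by name in Python 3.11.15 with pandas 2.3.3.

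Named genes were the 13 mitochondrially encoded genes, the tissue-restricted forms, the highest member of each complex, the SDH genes, the 3 highest and 3 lowest called nuclear changes per comparison whose replicates did not overlap, and up to 3 called genes per other list. Members and lists were chosen with earlier results of these data known. Comparisons of the combination with decitabine and of the decitabine effect between lines were added later. Alternatives were no scaling, quantile normalization, pseudocounts of 0.1 and 1, no filter, voom on recovered reads, the lines compared alone, the replicate letter as a block, leaving out each library, and, added later, scaling without the members. ATP5S and ATP5SL match the rule by name alone, and COX6A1P2 and ATP5EP2 are annotated as protein-coding.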

Additional observations from a re-analysis of the deposited data

Results flagged for a closer look

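Treatment effects differed between lines in tests of the difference itself. For GSK-126, the effect in SNU398 minus that in HepG2 was called above 0 for 1 mitochondrial and 41 nuclear members and below for 5 and 12, beside 27.3% and 25% of all genes. SNU475 minus HepG2 gave 1 and 60 above and 8 and 7 below, beside 22.6% and 34%. SNU475 minus SNU398 gave 1 and 48 above and 5 and 6 below, beside 22.3% and 33.7%, so its mitochondrial count below 0 was near the background. For decitabine, SNU398 minus HepG2 gave 12 and 47 above and 4 nuclear members below, beside 18% and 26% of all genes. SNU475 minus HepG2 gave 12 and 57 above and 5 nuclear members below, beside 21.5% and 36.4%. SNU475 minus SNU398 gave 11 and 33 above and 10 nuclear members below, beside 20.8% and 29%. Under quantile normalization the mitochondrial counts above and below 0 became 5 and 5 for GSK-126 in SNU475 minus HepG2, 5 and 3 in SNU475 minus SNU398, and 1 and 5 for decitabine in SNU475 minus SNU398.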

How the results depend on the processing

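Pseudocounts of 0.1 and 1 and scaling without the members kept every count of members called within 1.5 times, and the other alternatives did so for most. Quantile normalization moved 28 of 96 counts and no scaling 16. With the quantiles equalised, mitochondrial members called higher and lower (higher first where both are given) were 8 higher for decitabine in SNU475 and 7 for the combination, 1 lower for decitabine in SNU398 and 1 for the combination, 1 below 0 in the HepG2 interaction and 7 above in SNU475, 5 and 6 for SNU398 against HepG2 without drug, 7 and 1 for SNU475 against HepG2, and 7 and 4 for SNU475 against SNU398. For the GSK-126 effect they were 2 above for SNU398 minus HepG2, 5 and 5 for SNU475 minus HepG2 and 5 and 3 for SNU475 minus SNU398, and for the decitabine effect 7 above for SNU475 minus HepG2 and 1 and 5 for SNU475 minus SNU398. For the combination against decitabine in SNU475, 0 were lower. Nuclear members were 3 higher for decitabine in HepG2, 19 and 23 in SNU475, 13 higher for the combination in SNU398, 4 higher against decitabine in SNU398, 2 lower in SNU475, and 17 above for the decitabine effect of SNU475 minus SNU398. Of named genes, MT-ND1 turned to 1.10 for SNU398 against HepG2, and MT-ND5 to 0.00 for the combination against decitabine in SNU475. The cause of these moves was not tested.

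On unscaled RPKM, nuclear members were 2 higher for decitabine and 11 for the combination in HepG2, 2 for GSK-126 in SNU398, 52 above and 3 below 0 in the SNU398 interaction, 12 below in SNU475, 11 lower for SNU398 and 26 lower for SNU475 against HepG2 without drug, 2 below for the GSK-126 effect of SNU475 minus SNU398 and 3 below for the decitabine effect of SNU475 minus HepG2. Mitochondrial members were 5 and 3 for SNU475 against HepG2, 1 lower for SNU475 against SNU398, 0 above for the GSK-126 effect of SNU398 minus HepG2, and 2 and 3 for SNU475 minus SNU398. Without the filter, 1 was higher for SNU475 against HepG2. With voom, 9 mitochondrial members were lower for the combination against decitabine in SNU475 and 4 nuclear members higher in SNU398. With the line compared alone these comparisons gave 1 mitochondrial and 3 nuclear members higher in SNU398 and 2 nuclear members lower in SNU475. Against the main scaling, the median of all genes moved by 0.207 and 0.114 for SNU398 and SNU475 against HepG2 on unscaled RPKM, and by 0.119 for the decitabine effect of SNU475 minus HepG2 under quantile normalization.

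The letters A and B pair nothing by the labels, and the correlation of same-lettered deviations ran from -0.118 to 0.244. With the replicate block, 7 mitochondrial members were lower for the combination against decitabine in SNU475 and 2 above for the GSK-126 effect of SNU398 minus HepG2, and the other 94 counts stayed within 1.5 times.

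Leaving out each library in turn, the counts that moved by over 1.5 times ranged as follows. Nuclear members higher were 3 to 7 for decitabine in HepG2, 6 to 10 in SNU398 (11 to 20 lower) and 5 to 8 for the combination in SNU398, and 9 to 15 were lower for GSK-126 in SNU475. Mitochondrial members higher were 0 to 2 for SNU475 against HepG2 without drug and 0 to 2 for the GSK-126 effect of SNU398 minus HepG2. For the combination against decitabine, 2 to 5 mitochondrial members were higher in HepG2, 1 to 2 in SNU398 (nuclear 1 to 2 higher and 10 to 17 lower), and 0 to 4 lower in SNU475 (nuclear 2 to 5 higher and 1 to 4 lower). Nuclear members below 0 for the decitabine effect were 3 to 7 for SNU398 minus HepG2 and 3 to 8 for SNU475 minus HepG2. A lone library was assumed to vary like the other groups. COX7B2 and COX7A1 rest on at most 109 and 37 reads in a library.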
